A study of Gasterosteus aculeatus with 53 samples.

Results

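Female Paxton limnetic threespine sticklebacks (Gasterosteus aculeatus) that had been courted by a heterospecific male were compared with females of the same population in a social control, by RNA-seq of the whole brain. The 2 groups were taken from the labels of the libraries and held 6 females each, 12 of the 53 libraries of the series. Limnetic and benthic sticklebacks are a pair of species that live together in Paxton Lake, the limnetic feeding in open water and the benthic near the bottom. In the heterospecific group the stimulus fish was a nesting Paxton benthic male. In the social control it was a non-reproductive Paxton limnetic female from the subject's home aquarium. All subjects were wild-collected females that carried ripe eggs, and the brain was taken after 20 min or at spawning. The 6 females courted by a conspecific (Paxton limnetic) male, and the heterospecific and social control groups of Priest limnetic and Paxton benthic females, were used only where named.

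In sticklebacks the male builds a nest and courts the female, and she chooses whether to follow him and spawn. Limnetic and benthic males differ in body form and courtship, and females of both species usually spawn with males of their own. The brain receives the visual, chemical and behavioural cues of an encounter, and changes in transcript levels there are one readout of social experience. A whole brain holds many cell types, so a smaller number of cells of a type and less RNA per cell cannot be told apart in these values. The count table lists Ensembl gene identifiers without gene names, and 0 of its 22456 identifiers could be paired with a symbol from the reference table used here. Gene lists by function or cell type, and a check of the tissue by its markers, were therefore not analysed here, and 4 genes are given by their identifiers.

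The 2 groups overlapped in total counts per library. Total counts ranged from 34230647 to 43588156 in the heterospecific group and from 33964193 to 52788436 in the social control, and the means differed by -1638711 counts (exact two-sided permutation test, p = 0.662). This difference rested on the control library with the highest total, trial 25, without which it was 804899 counts (p = 0.712 in the same exact permutation test). Between 20579 and 20836 genes had a count in a heterospecific library, against 20603 to 20904 in a control library. Pairs of libraries correlated at Pearson's r of 0.966 to 0.981 over genes on the log2 scale, and no pair was close enough to be a single library deposited again. Whether the females of a group shared a holding tank, a collection or a family is not given in the labels. The p-values therefore measure spread between individual brains. In the permutation tests these were the 12 brains compared, while the tests of single genes pooled the spread over 51 libraries of all populations and treatments.

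The brains of the 2 groups were not separated on the main axes of expression. In a principal components analysis of log2 CPM (counts scaled to the same library total) over the 5000 most variable genes, the first 3 PCs held 17.8%, 11.2% and 10.3% of the variance. Scores on PC1 were 34.0, -5.32, 6.82, 38.5, -19.7 and -14.5 in the heterospecific libraries of trials 26, 30, 37, 41, 49 and 70. In the social control libraries of trials 19, 25, 33, 51, 61 and 79 they were -16.8, 10.7, 2.86, -20.4, -35.7 and 19.6. The groups overlapped widely, although the highest scores belonged to 2 females courted by a heterospecific male, trials 41 and 26, and the lowest to a control female, trial 61. Mean PC1 scores were 6.64 ± 24.7 in the heterospecific group and -6.64 ± 21.1 in the social control (SD, n = 6 each), a difference of 13.3 (exact two-sided permutation test over 924 splits, p = 0.333). The differences on PC2 and PC3 were 14.1 and -12.0 (p = 0.188 and 0.238 by exact permutation, and 0.333 for each of the 3 PCs after Benjamini-Hochberg adjustment). On PC3 the heterospecific library of trial 37 stood apart at 34.2, while the other 5 heterospecific libraries scored -7.37 or lower.

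**Figure D1:**
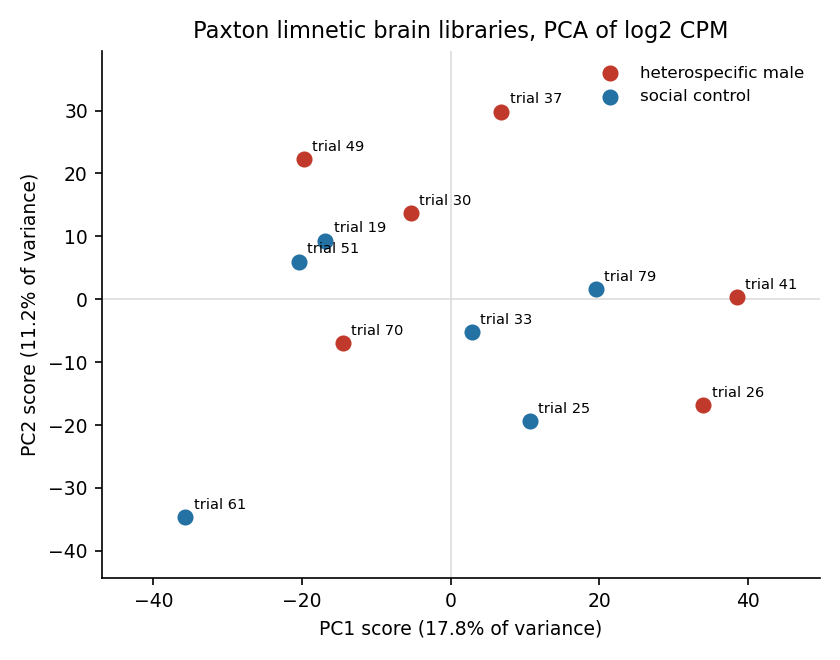
Scores of the 12 Paxton limnetic brain libraries on the first and second PC of log2 CPM over the 5000 most variable genes, 1 point per female, labelled with the trial number. Red points are females courted by a heterospecific male and blue points social controls, and the 2 colours overlap on both axes.

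Distances between whole transcriptomes did not separate the groups either. The mean Euclidean distance in log2 CPM over all tested genes was 85.2 between libraries of different groups and 84.8 between libraries of the same group. The excess of 0.371 did not exceed that of other assignments of the 12 females (exact one-sided permutation test, p = 0.307). It turned negative when the heterospecific library of trial 41 (-0.0224), or the control library of trial 19 (-0.375), 51 (-0.0285) or 61 (-0.614), was left out. Of the 12 libraries, 5 had their nearest neighbour in their own group. The heterospecific brains were somewhat more spread out: the mean distance of a library to its own group was 86.6 ± 2.11 in the heterospecific group and 83.0 ± 2.77 in the social control (SD, n = 6 each). Each distance within a group enters the values of 2 libraries, so the 6 values are not independent. The median SD of log2 CPM of a gene was 0.229 in the heterospecific group and 0.205 in the social control, and 57.9% of genes had the larger SD in the heterospecific group, values given without a test.

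The next question was which genes differed between the treatments. With edgeR's quasi-likelihood test, 0 of 20011 tested genes passed an adjusted p-value of 0.1, so percent called was 0. The lowest adjusted p in this edgeR test was 0.186, and 2 genes were under 0.2 and 22 under 0.5. At an unadjusted p under 0.05 there were 890 genes, or 4.45% of those tested, with 380 higher and 510 lower in females courted by a heterospecific male. With no difference between the groups a share of about 0.05 would be expected at this cut. The 890 are therefore not a list of genes shown to respond. At an unadjusted p under 0.001 there were 31 genes, 11 higher and 20 lower. A share of about 0.001 of the 20011 would be expected at this cut, which the 31 exceed, though genes are not independent. DESeq2, the package the study used, called 8 of 21723 genes (0.0368%), 4 higher and 4 lower, with 968 at an unadjusted p under 0.05. Limma-voom called 0 of 20011, with 1297 at an unadjusted p under 0.05, above a share of 0.05. One of the 8 was not tested by edgeR, and among the 12 females it had counts only in trial 30, where it had 28.

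Most genes had similar levels in the 2 groups. The median absolute log2 fold change was 0.09, the 90th percentile 0.38 and the 99th percentile 1.16, with a median standard error of 0.14. The 95% interval of the log2 fold change lay within ±1 for 16860 of 19830 genes with an interval (85.0%) and within ±0.5 for 64.6%. Precision followed expression level. In the 5003 genes of lowest mean CPM (up to 3.90) the median standard error was 0.38 and 47.8% of intervals lay within ±1, while in the 5003 of highest mean CPM (from 46.8) these values were 0.10 and 98.99%. For many genes of low level a 2-fold difference thus lay within the interval. At mean levels of 3.90 to 17.1 CPM, 5.36% of genes had an unadjusted p under 0.05 with edgeR. Of these, 80 were higher and 188 lower with a heterospecific male. From 46.8 CPM upwards the share was 2.90%, with 88 higher and 57 lower. A share of about 0.05 would be expected with no difference, and genes are not independent of each other, so these counts are a description.

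**Figure D2:**
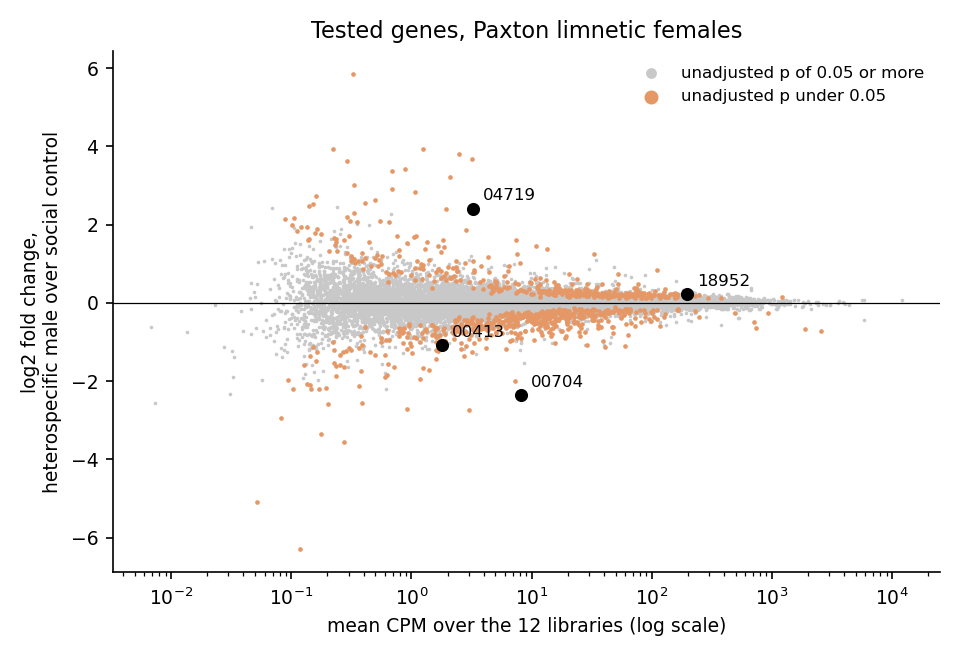
Log2 fold change of each tested gene, heterospecific male over social control (vertical axis), against its mean CPM over the 12 libraries (horizontal, log scale). Orange points are genes at an unadjusted p under 0.05 and grey points the others, and the 4 black points, marked with the last digits of their identifiers, are the genes given by their values; large fold changes lie mostly at low CPM.

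Fold changes above 2-fold were found mainly at low levels, and many depended on the highest library. An absolute log2 fold change above 1 was estimated for 301 genes, 163 higher and 138 lower with a heterospecific male, and 226 of them had a mean CPM under 1. In 57 of the 301, a single library held more than 50% of the CPM summed over the 12 (18.9%, against 0.325% of all tested genes). By a plain ratio of mean CPM, with 0.1 added to each mean, 156 of the 301 had an absolute log2 ratio above 1. With each gene's highest library left out, 34 did, and some fall follows from leaving out a library chosen by its value. In 6 of the 301 the groups did not overlap, where 0.0700% of all tested genes lay wholly higher and 0.0800% wholly lower. The fold change and these counts come from the same values, so the counts are a description.

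The gene with the lowest p among those higher with a heterospecific male was of this kind. Most genes of lowest p were not. More than 50% of the summed CPM lay in 1 library in 3 of the 10 higher and 2 of the 10 lower genes of lowest p. The share was 0.325% of all tested genes. ENSGACG00000004719 had 0.816, 2.38, 24.9, 1.78, 1.23 and 1.72 CPM in the heterospecific females of trials 26, 30, 37, 41, 49 and 70, against 0.585, 1.07, 1.44, 1.53, 1.1 and 0.446 CPM in the control females of trials 19, 25, 33, 51, 61 and 79. Only trial 37 was far above the rest, and the other 5 heterospecific females, at 0.816 to 2.38 CPM, overlapped the controls, at 0.446 to 1.53 CPM. The log2 fold change was 2.41 ± 0.56 (SE; adjusted p = 0.388 with edgeR, 0.0187 with DESeq2), and 63.9% of the summed CPM lay in trial 37. Without trial 37 the log2 fold change was 0.62 (adjusted p = 0.999 with edgeR). Conspecific-courted females had 0.671 to 4.10 CPM (median 1.47), beside medians of 1.75 CPM in heterospecific and 1.09 CPM in control females, and no library of Priest limnetic or Paxton benthic females in the heterospecific and control groups exceeded 4.26 CPM.

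The gene with the lowest p of all had its high value in a control brain. ENSGACG00000000704 had 2.82, 2.81, 2.05, 2.68, 2.47 and 3.03 CPM in the heterospecific females of trials 26, 30, 37, 41, 49 and 70. In the control females of trials 19, 25, 33, 51, 61 and 79 it had 2.72, 3.53, 3.26, 65.5, 2.94 and 3.73 CPM. Apart from trial 51, the control values stood close to or a little above the heterospecific ones. The log2 fold change was -2.36 ± 0.48 (SE; adjusted p = 0.186 with edgeR, 0.00716 with DESeq2), and without trial 51 it was -0.30 (adjusted p = 1.00 with edgeR). With trial 51 kept, edgeR's adjusted p fell under 0.1 in 6 of the fits that left out another library, to as low as 0.0218 without the control library of trial 79.

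The other 2 genes had small or moderate fold changes and groups that did not overlap. They were picked with these values known, so the separation is a description. ENSGACG00000018952, an abundant transcript, had 193, 199.8, 196, 232, 227 and 209 CPM in the heterospecific females of trials 26, 30, 37, 41, 49 and 70, against 191, 166, 184, 166, 190.2 and 184 CPM in the control females of trials 19, 25, 33, 51, 61 and 79. Every heterospecific value lay above every control value, though by less than 1% at the closest point. Its log2 fold change was 0.22 ± 0.06 (SE; adjusted p = 0.404 with edgeR, 0.0943 with DESeq2). Means were 209 ± 16.5 CPM with a heterospecific male, 192 ± 9.03 CPM with a conspecific male and 180.2 ± 11.4 CPM in the social control (SD, n = 6 each).

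ENSGACG00000000413, a transcript of low level, had 1.1, 1.83, 1.53, 0.592, 0.823 and 0.977 CPM in the heterospecific females of trials 26, 30, 37, 41, 49 and 70. In the control females of trials 19, 25, 33, 51, 61 and 79 it had 2.25, 2.33, 1.90, 2.40, 2.35 and 3.29 CPM. All 6 heterospecific brains were below all 6 control brains, and trial 30 was the closest to the controls. The log2 fold change was -1.08 ± 0.25 (SE), with an adjusted p of 0.388 with edgeR and 0.0421 with DESeq2. Without trial 30 it was -1.27 (adjusted p = 0.0415 with edgeR), the lowest adjusted p of the fits that left out a single library. With any other library left out, edgeR's adjusted p ranged from 0.188 (without trial 37) to 0.814 (without trial 41). DESeq2 called this gene in 7 of the 12 fits that left out a single library. Means were 1.14 ± 0.461 CPM with a heterospecific male, 2.41 ± 0.891 CPM with a conspecific male and 2.42 ± 0.460 CPM in the social control (SD, n = 6 each).

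**Figure D3:**
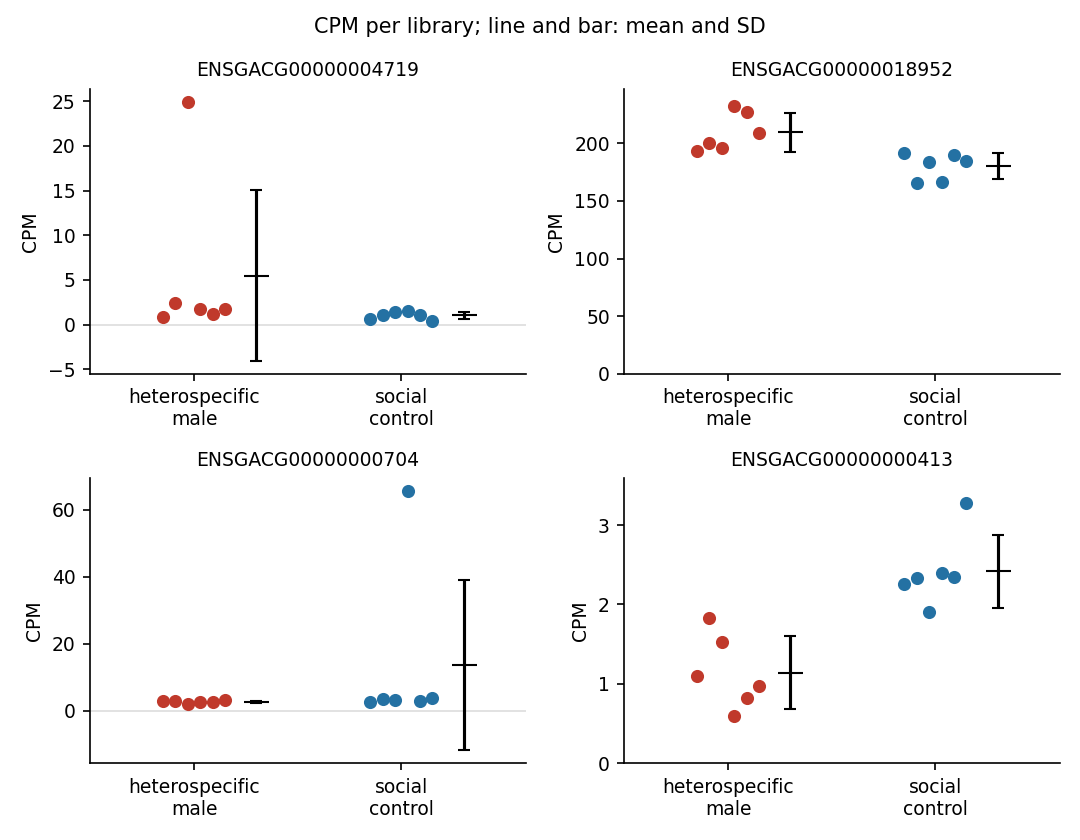
CPM of 4 genes in each of the 12 brains (vertical axes), heterospecific male in red and social control in blue, with the mean and SD (n = 6) beside each group. For ENSGACG00000004719 and ENSGACG00000000704 a single brain, at 24.9 and 65.5 CPM, sets the difference, while for ENSGACG00000018952 and ENSGACG00000000413 the groups do not overlap.

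The 4 genes were also compared with the treatments of the same name in the other populations, whose females are separate fish. The stimulus fish differed between populations. The heterospecific male was a Priest benthic male for Priest limnetic females and a Paxton limnetic male for Paxton benthic females. The control fish was a female of the subject's own population. For ENSGACG00000018952 the log2 fold change of heterospecific male over social control was 0.22 in Paxton limnetic, -0.03 in Priest limnetic and -0.08 in Paxton benthic females. For ENSGACG00000000413 it was -1.08, 0.20 and 0.03 in the same order of populations. For ENSGACG00000004719 and ENSGACG00000000704 the values were -0.21 and -0.14 in Priest limnetic and 0.09 and 0.14 in Paxton benthic females. None of these differences between populations passed edgeR's test of the interaction, with adjusted p from 0.305 to 0.646.

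Individual brains differed in which rare transcripts they carried. In 65 genes (0.325% of those tested) a single library held more than 50% of the CPM summed over the 12, 38 of them in heterospecific and 27 in control libraries. The heterospecific female of trial 37 held 17 of these genes and the control female of trial 19 held 0, while the other libraries held from 2 to 8. The mean number per library was 6.33 ± 5.68 in the heterospecific group and 4.50 ± 3.08 in the social control (SD, n = 6 each; exact two-sided permutation test, p = 0.621). For the 17 genes of trial 37 the level there ranged from 0.433 to 57.2 CPM, with a median of 4.88 CPM, whereas the median over the 12 libraries was at most 1.94 CPM in any of them.

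Most of these transcripts were also high in a brain of another group. Of the 65 genes, 45 reached 50% or more of that level in at least 1 of the other 39 libraries fitted. Genes were tested only if they passed a count filter over all 51 libraries, so this number follows in part from the filter. For 11 of the 17 genes of trial 37, the highest of those 39 was the Priest limnetic heterospecific library of trial 13, which held 50% or more of the level in 11. For the 8 genes of trial 30, the Paxton limnetic conspecific library of trial 20 was the highest in 7. Whether these libraries share a cell source, a genotype or a condition was not tested.

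**Figure D4:**
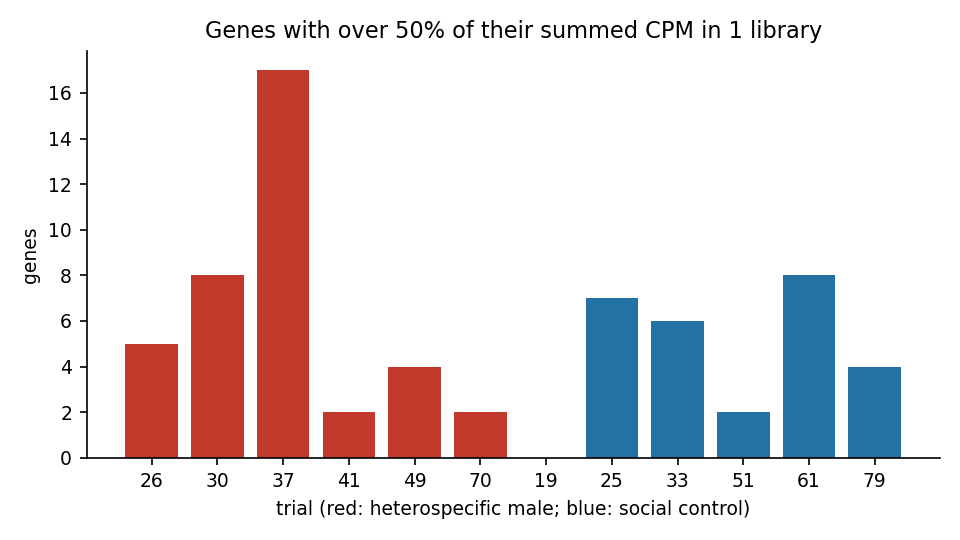
Number of genes with more than 50% of their summed CPM in a single library (vertical axis), by the trial that holds it (horizontal axis), heterospecific male in red and social control in blue. Trial 37 holds 17 genes, and the other 11 libraries between 0 and 8.

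Complete separation of the 2 groups was rare. In 14 genes (0.0700% of those tested) all 6 heterospecific values lay above all 6 control values, and in 16 genes (0.0800%) they all lay below. With no difference between the groups, a share of about 0.00108 (1 of 924 splits) would be expected in each direction. Both observed shares were below that, so the 30 are not a list of genes shown to respond. The 14 had a median log2 fold change of 0.42, from 0.14 to 3.94, and a median level of 10.6 CPM, and 10 of them averaged at least 1 CPM. The 16 had a median log2 fold change of -0.50, from -1.23 to -0.23, and a median level of 4.32 CPM, and 14 averaged at least 1 CPM. The gaps between the groups were narrow, with a median of 4.29% and 4.44% of the lower of the 2 facing values for the higher and the lower genes. Adjusted p with edgeR was 0.388 or more for all 30. The conspecific mean lay between the heterospecific and control means in 10 of the 14 and 11 of the 16. The 30 genes were picked because these same heterospecific and control values lay apart. The 2 counts therefore follow in large part from that choice.

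Among these 30 genes, most had the opposite sign in the other populations. Of the 14 higher genes, 11 had a negative log2 fold change in Priest limnetic and 11 in Paxton benthic females, with medians of -0.08 and -0.07. Of the 16 lower genes, 12 were positive in Priest limnetic and 11 in Paxton benthic females, with medians of 0.16 and 0.04. Over all tested genes the medians were 0.00455 in Paxton limnetic, -0.00306 in Priest limnetic and -0.0025 in Paxton benthic females. Most of all tested genes were opposed in sign too, with 40.3% of the same sign in Priest limnetic and 40.7% in Paxton benthic females. Among the 30 genes, values reached 1.35 in Priest limnetic and -0.72 and 0.74 in Paxton benthic females. Of the 30, 1 in Priest limnetic and 0 in Paxton benthic females had an unadjusted p under 0.05 with edgeR.

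**Figure D5:**
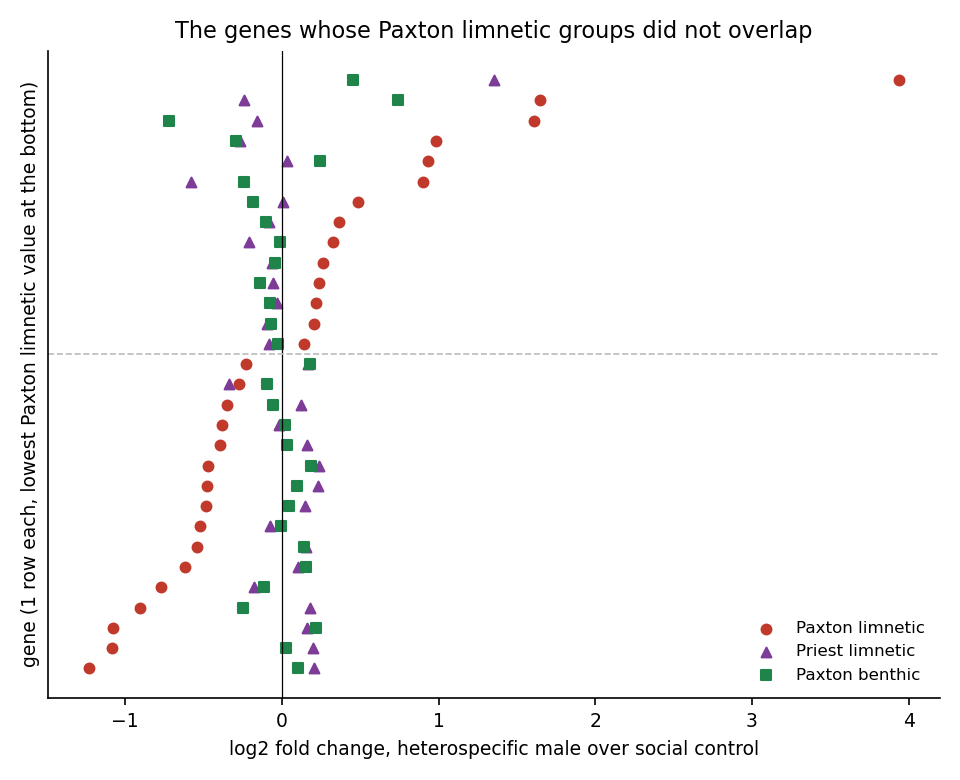
Log2 fold change of heterospecific male over social control (horizontal axis) of the 30 genes whose Paxton limnetic groups did not overlap, 1 row per gene, with the 16 lower genes under the dashed line and the 14 higher genes above it. Circles are Paxton limnetic, triangles Priest limnetic and squares Paxton benthic females; most triangles and squares lie on the other side of 0 from the circles, and Priest limnetic values reach 1.35 and Paxton benthic values -0.72 and 0.74.

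The difference between heterospecific male and social control, with stimulus fish that differed by population, was next compared between populations across all genes. Of the 20011 genes, 40.3% had a log2 fold change of the same sign in Paxton limnetic females as in those of Priest Lake, and 40.7% the same sign as in Paxton benthic females. With single libraries left out these shares ranged from 36.4% to 46.0% and from 37.7% to 45.3%. Among the 890 genes at an unadjusted p under 0.05 in Paxton limnetic females, 275 (30.9%) had the same sign in Priest limnetic and 288 (32.4%) in Paxton benthic females. The genes lower with a heterospecific male in Paxton limnetic females had a median log2 fold change of -0.49 there, 0.12 in Priest limnetic and 0.06 in Paxton benthic females. For the genes higher in Paxton limnetic females the medians were 0.34, -0.07 and -0.07.

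Most signs were also opposed among genes with an unadjusted p under 0.05 in both populations. There were 98 such genes with Priest limnetic females, 17 of the same sign, and 54 of the others were lower in Paxton limnetic and higher in Priest limnetic females. With Paxton benthic females there were 43, of which 3 had the same sign. Over all 20011 tested genes, 1541 had an unadjusted p under 0.05 with edgeR in Priest limnetic, 754 in Paxton benthic and 890 in Paxton limnetic females. How the 98 and the 43 compare with the overlap expected from these numbers was not tested. The 98, the 43 and the counts of the same sign moved with single libraries. The 98 became 53 without the Paxton limnetic control of trial 19, 59 without the Priest limnetic control of trial 45 and 154 without the Paxton limnetic control of trial 79, and those of the same sign ranged from 11 (without the Priest limnetic heterospecific library of trial 13) to 20. The 43 ranged from 30 to 76, with 72 without the benthic control of trial 91 and 76 without the Paxton limnetic control of trial 79. Of them, 3 to 10 had the same sign, and in 19 of 23 fits this count was more than 1.5 times the 3 of the full set, highest without the Paxton limnetic heterospecific library of trial 70 or control of trial 33. Across genes, which are not independent replicates, Pearson's r of the log2 fold changes was -0.158 with Priest limnetic and -0.0423 with Paxton benthic females (Spearman's rho -0.221 and -0.185). Without the Priest limnetic control of trial 72 r with Priest limnetic females was -0.0985, and r with Paxton benthic females ranged from -0.0839 to 0.00599 as single libraries were left out. In the upper 10006 genes by mean CPM it was -0.346 and -0.235. Each population has its own heterospecific and control libraries, and these values are given as a description.

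No gene passed edgeR's threshold for a different contrast of heterospecific male and social control between populations, while DESeq2 called some. EdgeR's interaction test called 0 genes (0%) between Paxton limnetic and Priest limnetic females, with 1770 (8.85%) at an unadjusted p under 0.05 and a lowest adjusted p of 0.207. DESeq2 called 25 genes there, with 1905 at an unadjusted p under 0.05. Between Paxton limnetic and Paxton benthic females edgeR called 0 genes (0%), with 1249 (6.24%) at an unadjusted p under 0.05 and a lowest adjusted p of 0.309, and DESeq2 called 5, with 1353.

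The count of genes between heterospecific male and social control moved with single females, most of all with trial 30. Without the heterospecific library of trial 30, edgeR called 12 of 20002 genes, 1 higher and 11 lower with a heterospecific male, and DESeq2 called 42. Among the 12 genes were ENSGACG00000004719, ENSGACG00000000704 and ENSGACG00000000413. The absolute log2 fold changes of the 12 without trial 30 were 0.71 to 2.56, and with all 12 libraries their adjusted p was 0.186 to 0.875 with edgeR. In 9 of the 12 genes the level in trial 30 lay within the range of the control females, and in 10 it lay outside the range of the other 5 heterospecific females, which follows in large part from how the 12 were chosen. Of the 11 other libraries, edgeR called 2 genes without the control of trial 79, 1 gene without each of the controls of trials 19, 25, 33 and 61, and 0 genes without any of the rest. DESeq2 called from 2 genes (without trial 41) to 17 (without trial 79) when a library other than trial 30 was left out. These counts were a description, since trial 30 was singled out by the effect of leaving it out, and whether that female differed in her behaviour or handling was not tested.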

How the data were processed

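Whole-brain RNA of single females was captured by polyA selection and sequenced as paired reads. The authors checked reads with FastQC (0.11.1), trimmed them with Trimmomatic (0.33), aligned them with BWA (0.7.7) to the Ensembl BROAD S1 genome, sorted alignments with SAMtools (1.2) and counted reads per gene with bedtools (2.23.0). The deposited values are raw counts, and strand use was not given in the sources used here. Total counts per library are given above, while read depth and mapping rate per library were not analysed here.

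Counts of 51 libraries were fitted in R (4.3.3) with edgeR (4.0.16) after TMM normalisation and filterByExpr, with 9 group means. The 2 libraries the study removed as swapped were left out. Quasi-likelihood p-values were adjusted over 20011 genes (Benjamini-Hochberg) and called under 0.1, the study's threshold. The study applied this threshold with DESeq2 rather than edgeR, and DESeq2 called 8 genes here. CPM values were TMM-scaled, and log2 CPM used a prior count of 2. PCA scores, distances and total counts were compared by exact permutation over 924 splits. DESeq2 (1.42.0), limma-voom (limma 3.58.1), RLE factors, other sets of libraries, no filter, trial number as a covariate, robust estimation (added after seeing the data) and each library left out were alternatives.

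The named genes follow a rule (lowest p or non-overlapping groups or a DESeq2 call), and the 4 printed were picked among them after their values were seen. The groups and lists were chosen with earlier results of these data known. On counts simulated for 20011 genes in the same design, 36 of 67 genes changed by a log2 of 0.5, 50 of 67 changed by 1 and 65 of 66 changed by 2 were called, beside 24 false calls of 175. Apart from the planted changes, these counts were drawn with 1 mean per gene from the fitted model and tested with it. They held no population differences and no shifts shared by the genes of a library. The recovered shares are therefore not the power for the real libraries. The 350 listed gene symbols, for functions and cell types, matched 0 identifiers and gave no result.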

Additional observations from a re-analysis of the deposited data

Results flagged for a closer look

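In 4 of 20 groups of 6 values examined, the highest or lowest library stood apart from the rest by more than Dixon's 95% critical value, where chance flags about 1 in 20 groups. The gap took 0.761 of the range for PC3 in the heterospecific group (trial 37, at 34.2). It took 0.935 of the range for ENSGACG00000004719 in the heterospecific group (trial 37, at 24.9 CPM). For ENSGACG00000000704 in the social control it took 0.984 (trial 51, at 65.5 CPM), and for ENSGACG00000000413 in the social control 0.642 (trial 79, at 3.29 CPM). The 3 genes were chosen with their values known, so their flags are not a sample of all genes.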

How the results depend on the processing

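No paired analysis was possible because the trial numbers are not shared between the heterospecific and social control libraries. The count of 0 genes held with RLE factors, no filter, robust estimation (added after seeing the data), trial number as a covariate, limma-voom, 12, 18 and all 53 libraries, and DESeq2 called 8. Leaving out 1 library gave 0 to 12 genes with edgeR and 2 to 42 with DESeq2, and 0 of the 8 DESeq2 genes were called in all 12 of those fits. ENSGACG00000000704 and ENSGACG00000004719 were each called in 11 of the 12 DESeq2 fits. A gene not printed above was called in 10, and the remaining DESeq2 genes in 0 to 7. The highest library of that unprinted gene held 18.3% of its summed CPM. Its log2 fold change was -1.10 (adjusted p = 0.186 with edgeR, 0.0153 with DESeq2). For the interaction with Priest limnetic females DESeq2 called 25 and leaving out 1 library gave 0 to 12 with edgeR (12 without trial 30). For that with Paxton benthic females DESeq2 called 5 and leaving out 1 library gave 0 to 10 (10 without the control of trial 79). The PC1 difference stayed between 5.05 and 20.2 and the exact permutation p between 0.160 and 0.725 as single libraries were left out. The distance excess ranged from -0.614 to 1.15, and the difference in total counts from -2959950 to 804899. Pearson's r of the fold changes, with single libraries left out, ranged from -0.213 to -0.0985 (without the Priest limnetic control of trial 72) with Priest limnetic females and from -0.0839 to 0.00599 with Paxton benthic females. It was above 0 without the benthic control of trial 82 (0.00599) or the benthic heterospecific library of trial 90 (0.00559). The log2 fold changes of the 4 genes kept their sign with DESeq2, RLE factors, robust estimation, 12 libraries, trial number as a covariate and each of the 12 libraries left out, and were not computed under the other alternatives. With the spread taken from only the 12 libraries compared, edgeR's adjusted p for the 4 genes was 0.915 to 0.984. Limits of these data are the 6 brains per group, low counts of many genes and identifiers without names.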
